A study of Mus musculus with 4 samples.

Results

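The 10 genes described here are 6 small heat shock proteins (Hspb1, Hspb2, Cryab, Hspb6, Hspb7 and Hspb8), the co-chaperone Bag3, the constitutive heat shock protein Hspa8 and the mitochondrial chaperonin pair Hspd1 and Hspe1. They were chosen by gene symbol, as every row of the count files whose RefSeq transcript belongs to one of these symbols. They make up 10 of the 24847 genes in the files, and 18 transcripts carry their names. At least 1 count was present for 9 of the 10 genes, against 9314 genes of the whole series.

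RNA was sequenced from mouse hearts at 12 weeks of age, with 3 hearts combined in each of 4 libraries and 1 library per group. The dC10mut library came from transgenic mice on C57BL/6 that carry the 25 bp variant of MYBPC3 (cMyBP-CΔC10mut), and its partner NTG came from nontransgenic C57BL/6 mice. The tt library came from cMyBP-C(t/t) mice on FvB/N, and its partner, labelled control, came from FvB/N mice whose genotype is not described further. Cardiac myosin binding protein C is a thick-filament protein of the heart muscle sarcomere, and the labels do not name the promoter that drives the transgene. The pooling leaves no measure of the spread between hearts, so no p-value was computed within a pair, and every interval below is a 95% interval for counting error only.

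Small heat shock proteins bind unfolding proteins without using ATP and hold them in a state from which other chaperones can refold them. Hspa8, the constitutive HSP70, refolds such clients in ATP-driven cycles, and Bag3 joins it to Hspb8 and steers damaged filament proteins of muscle towards autophagy. Hspd1 (HSP60) and its lid Hspe1 (HSP10) fold proteins inside mitochondria. Heart muscle is rich in several of these proteins, and inherited variants of CRYAB and BAG3 are known from cardiomyopathy in humans.

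The libraries were shallow: totals were 187365 counts in dC10mut, 170543 in NTG, 186420 in tt and 176633 in control. A single count therefore stood for 5.34 to 5.86 CPM (counts scaled to one library size) by library totals. With the TMM scaling of the levels below, it stood for 5.19 CPM in tt and up to 6.24 CPM in NTG. Between 6704 and 6971 genes had a count in a library. The library kit keeps the strand of the RNA, but how the counting used strand is not stated, and genes that lie opposite each other had very unequal counts. Pdha1, a subunit of pyruvate dehydrogenase, had 188 counts in dC10mut, 121 in NTG, 228 in tt and 150 in control, while Map3k15, whose exons lie opposite it, had 11101 in dC10mut, 11983 in NTG, 14012 in tt and 12362 in control. Ckm, the creatine kinase of muscle, had 290 to 432 counts and the noncoding gene opposite it, A930016O22Rik, had 5781 to 7272. Xist, the noncoding RNA of the inactive X chromosome, had 8 counts in dC10mut, 0 in NTG, 14 in tt and 0 in control, and Tsix opposite it had 147 in dC10mut, 0 in NTG, 159 in tt and 0 in control. These gene pairs were chosen after their values were seen. Transcripts that face an exon of some gene on the opposite strand made up 20.9% of those placed on the genome. They held 66.9% to 70.4% of the counts that the placed transcripts had in a library. Such counts are what assignment to the strand opposite the RNA would give, so a row below holds the reads assigned to that gene and is not shown to measure that gene's own mRNA.

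Transcripts that share all their exon bases with another row of the same strand mostly held nothing: of 7110 such transcripts, 6979 had 0 counts in every library (98.2%), against 67.8% of the transcripts with bases of their own. Known muscle genes were also uneven. Of the 10 heart muscle markers, Tnnt2 and Myl3 had 0 counts in every library, whereas Myl2 had 3520 counts in dC10mut, 2405 in NTG, 2453 in tt and 2556 in control. Markers of blood cells had 0 counts throughout.

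Cryab (αB-crystallin), a small heat shock protein that binds desmin and titin, held 72.4% of the counts of the 10 genes. It had 1038 counts in dC10mut, 861 in NTG, 739 in tt and 851 in control. The tt library was the lowest and dC10mut the highest, and after scaling the levels were 5545 CPM in dC10mut, 5371 in NTG, 3836 in tt and 4676 in control. The log2 ratio was 0.05 (−0.09 to 0.18) for dC10mut over NTG and −0.29 (−0.43 to −0.14) for tt over control. The tt interval lay below equality, but the difference is far under the 2-fold size used here for calling a gene higher or lower. It is also close to the distance between control and NTG, neither of which is labelled as a model. Control over NTG gave −0.20 (−0.34 to −0.06), and −0.07 with library totals in place of TMM scaling.

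All Cryab counts stood in 1 of its 4 transcripts, NM_001289782, which lies on the plus strand at chr9:50751325-50756636 (GRCm38, GENCODE M21) and has 4 exons. The other 3 transcripts, which share their placement and have no exon base of their own, had 0 counts. The counted transcript has 359 bases of its own, and 252 of them are its first exon at chr9:50751325-50751576. That exon lies wholly opposite an exon of Hspb2, a small heat shock protein of heart and skeletal muscle that binds myotonic dystrophy protein kinase, whose gene stands on the minus strand at chr9:50751078-50752293. Reads of Cryab and Hspb2 cannot be told apart in these bases while the strand setting is unknown, so no direction is given between the 2 genes.

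**Figure D1:**
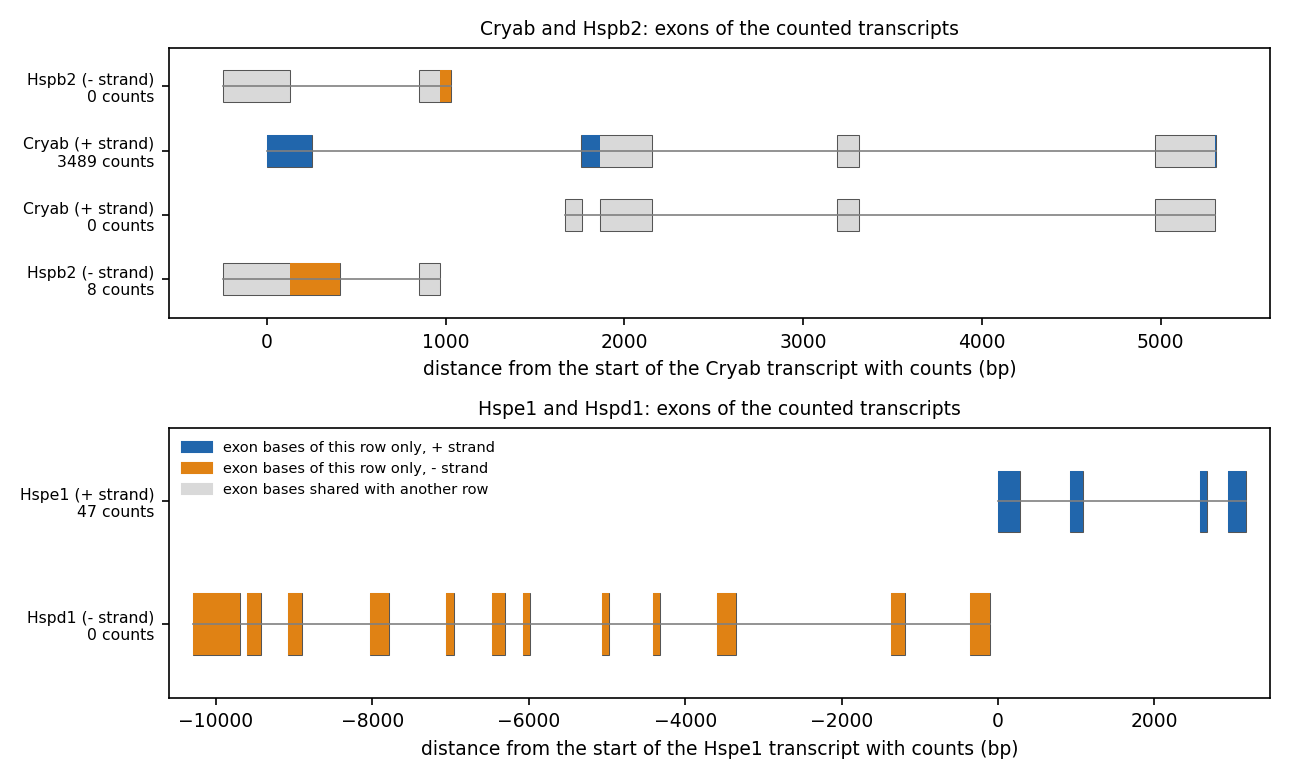
Exons of the transcripts of Cryab and Hspb2 (top) and of Hspe1 and Hspd1 (bottom), by distance in bp from the start of the plus-strand transcript that holds counts, with counts summed over the 4 libraries. Among the placed transcripts, coloured bases belong to 1 row only and grey bases are shared with another row of the same strand. The Hspd1 transcript that holds that gene's counts was not placed, so it is not drawn and was not used in marking shared bases. The 252 bp first exon of the Cryab row lies opposite Hspb2.

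Hspb2 itself had 6 counts in dC10mut, 0 in NTG, 1 in tt and 1 in control. With 3 counts in place of 0 in the NTG library, dC10mut was 1.71-fold higher. That value leaves out the counting error of the 6 counts, and the lower end of the log2 interval was 0.01. All 8 counts stood in NM_024441, of whose 282 own bases 125 lie opposite an exon of Cryab. Summed with Cryab, the pair had 1044 counts in dC10mut and 861 in NTG, a log2 ratio of 0.05 (−0.08 to 0.19), and 740 in tt and 852 in control, a log2 ratio of −0.29 (−0.43 to −0.14).

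Hspb7, a small heat shock protein of heart and skeletal muscle that binds filamin C, was the next most abundant, with 254 counts in dC10mut, 192 in NTG, 201 in tt and 220 in control. The 4 libraries lay close together, from 1043 CPM in tt to 1357 CPM in dC10mut. The log2 ratio was 0.18 (−0.10 to 0.46) for dC10mut over NTG, −0.21 (−0.50 to 0.07) for tt over control and 0.01 (−0.27 to 0.30) for control over NTG, and no interval excluded equality. The gene lies on the plus strand at chr4:141420779-141425311 with 3 exons and no exon opposite it.

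Hspb8 (HSP22), the partner of Bag3 in the clearance of damaged proteins, had 68 counts in dC10mut, 26 in NTG, 53 in tt and 58 in control. The scaled levels were 363 CPM in dC10mut, 162 CPM in NTG, 275 CPM in tt and 319 CPM in control, so NTG stood below the other 3 libraries. The dC10mut library was 2.22-fold higher than NTG, with a log2 ratio of 1.15 (0.49 to 1.87). In the other pair tt did not stand apart from control, at −0.21 (−0.78 to 0.35). The control library was in turn 1.95-fold above NTG, with a log2 ratio of 0.96 (0.28 to 1.70), although neither is labelled as a model. These libraries differ in strain, and the sex-linked gene Ddx3y had 14 counts in control and 1 in NTG. NTG is shared by both comparisons in which Hspb8 stood high. Hspb8 lies on the minus strand at chr5:116408491-116422864 with 3 exons and no exon opposite it.

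Hspb1 (HSP27), which guards actin filaments, had 5 counts in dC10mut, 5 in NTG, 2 in tt and 2 in control. Both C57BL/6 libraries were above both FvB/N libraries, but control over NTG had a log2 ratio of −1.29 (−4.90 to 1.11), so no difference was detectable at this depth. Hspb6 (HSP20), a phosphoprotein linked to relaxation of heart and smooth muscle, had 2 counts in dC10mut, 0 in NTG, 2 in tt and 4 in control. The level of 10.7 CPM in dC10mut lies under the 18.7 CPM that a count of 0 allows in NTG by the floor of 3 counts.

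Bag3 had 39 counts in dC10mut, 37 in NTG, 47 in tt and 45 in control. By the ratio of highest to lowest level it varied least of the counted genes, between 208 CPM in dC10mut and 247 CPM in control. The log2 ratio was −0.15 (−0.83 to 0.54) for dC10mut over NTG, −0.02 (−0.64 to 0.60) for tt over control and 0.10 (−0.56 to 0.77) for control over NTG. No interval excluded equality. Bag3 lies on the plus strand at chr7:128523616-128546981 with 4 exons and no exon opposite it.

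Hspa8, which is abundant in most cells, had 0 counts in both of its transcripts in all 4 libraries, which allows 16.0 CPM in dC10mut, 18.7 in NTG, 15.6 in tt and 16.5 in control. One of the transcripts, at chr9:40800984-40805200 on the plus strand, has 375 exon bases of its own. The value is that of the counting and is not read as absence of the RNA. Other HSP70 genes did have counts: Hspa9 (mortalin), the HSP70 of mitochondria, had 150 counts in dC10mut, 113 in NTG, 178 in tt and 166 in control.

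Hspe1 had 20 counts in dC10mut, 5 in NTG, 11 in tt and 11 in control. NTG was again the lowest library and dC10mut the highest, and tt and control had the same count. The dC10mut library was 3.22-fold higher than NTG, with a log2 ratio of 1.69 (0.32 to 3.55), against −0.08 (−1.43 to 1.26) for tt over control and 0.89 (−0.69 to 2.83) for control over NTG. Hspd1, its partner in the chaperonin, had 1 count in dC10mut, 5 in NTG, 4 in tt and 2 in control. The log2 ratio for dC10mut over NTG was −2.05 (−8.11 to 0.61), opposite in sign to that of Hspe1 and within counting error. Summed over both genes there were 21 counts in dC10mut and 10 in NTG, with a log2 ratio of 0.82 (−0.30 to 2.10), and 15 in tt and 13 in control, with 0.12 (−1.05 to 1.32), so the sum did not differ beyond counting error in either pair. Hspe1 is at chr1:55088132-55091307 on the plus strand, and the placed Hspd1 transcript, with 0 counts, is at chr1:55077835-55088024 on the minus strand. All Hspd1 counts stood in its other transcript, which was not placed on the genome. Of the 774 exon bases of Hspe1, 112 lie opposite an exon of Hspd1.

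**Figure D2:**
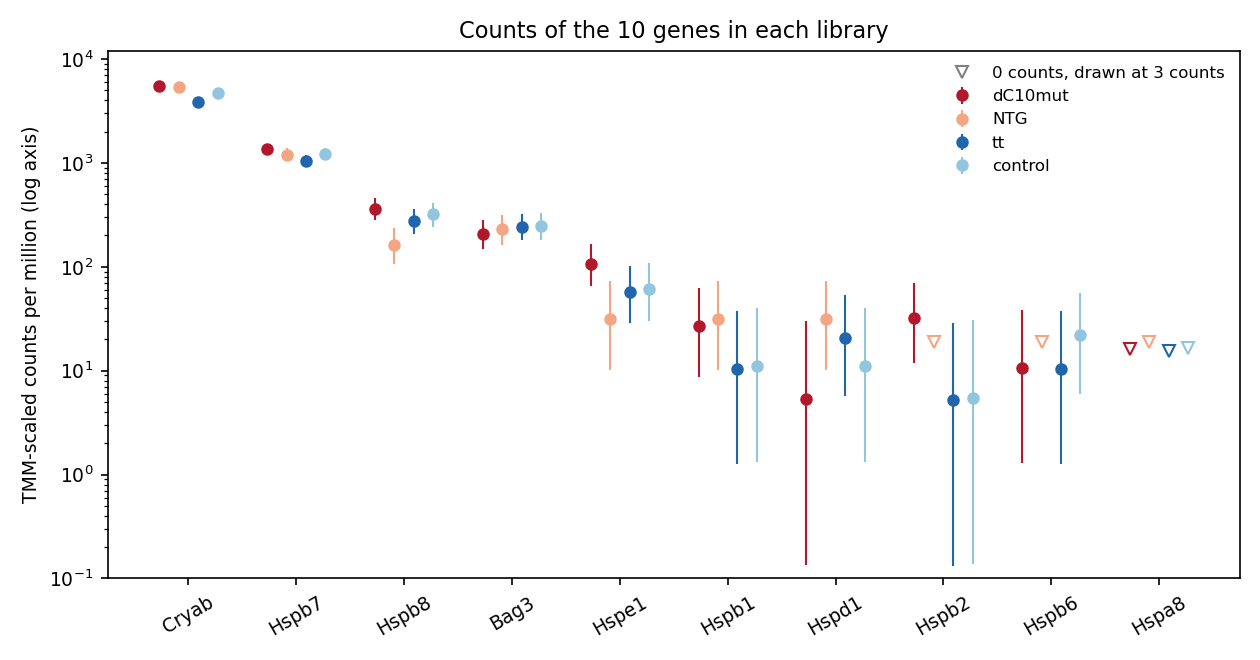
TMM-scaled CPM (log axis) of the 10 genes in each library, with exact 95% Poisson intervals for counting error; open triangles mark 0 counts and stand at the level of 3 counts. For Hspb8, dC10mut, tt and control lie between 275 and 363 CPM and NTG lies at 162 CPM, while the 4 Bag3 points lie between 208 and 247 CPM.

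Among the genes with 1 transcript, rows could be ordered by level per length. This orders the reads assigned to each row, which are not shown to measure the gene's own mRNA. Hspb7 was highest in every library, with 377 to 490 CPM per kb of exon. Hspb8 followed at 200 CPM per kb in dC10mut, 89.3 in NTG, 151 in tt and 176 in control, and Bag3 stood at 81.3 in dC10mut, 90.1 in NTG, 95.2 in tt and 96.5 in control. In NTG the values of Hspb8 and Bag3 lay within counting error of each other. Hspe1, which lies partly opposite an exon of Hspd1, ranged from 40.3 to 138 CPM per kb and Hspb1 from 11.5 to 34.5.

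Of the 9 genes with a count, 3 were called higher in dC10mut than in NTG by the ratio with its prior count (Hspb2, Hspb8 and Hspe1) and 0 lower. Over all genes with a count in that pair, 1.8% were called higher and 2.52% lower. Most of these 8009 genes had too few counts for a call to be likely: 1890 genes had at least 10 counts in dC10mut and 1691 in NTG. With at least 10 counts required in a library of the pair, 116 genes were higher and 158 lower, and 2 members were higher. The shares over all genes therefore understate those among genes counted as well as Hspb8 and Hspe1. Shares in the other comparisons include such low-count genes too. With a count of 0 taken at 3 counts, Hspb2 is at 1.71-fold and falls under the 2-fold size. This leaves Hspb8 and Hspe1 called, 2 of the 9 genes, where 1.6% of all genes were then higher and 2.32% lower. In tt against control, 0 of the 9 were called in either direction, where 2.7% of all genes were called higher and 1.58% lower. In control against NTG, 0 of 9 were called, with 1.4% of all genes higher and 1.7% lower. Scaling by library totals moved the scale of control over NTG up by 0.13 (log2), less for rows with few counts because of the prior count, so that 155 genes were higher and 84 lower in place of 114 and 138, and Hspb8 was then called higher in control, at 1.09. Hspe1 rests on 20 counts in dC10mut and 5 in NTG, and for Hspb2, Hspb8 and Hspe1 NTG was the lowest of the 4 libraries.

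**Figure D3:**
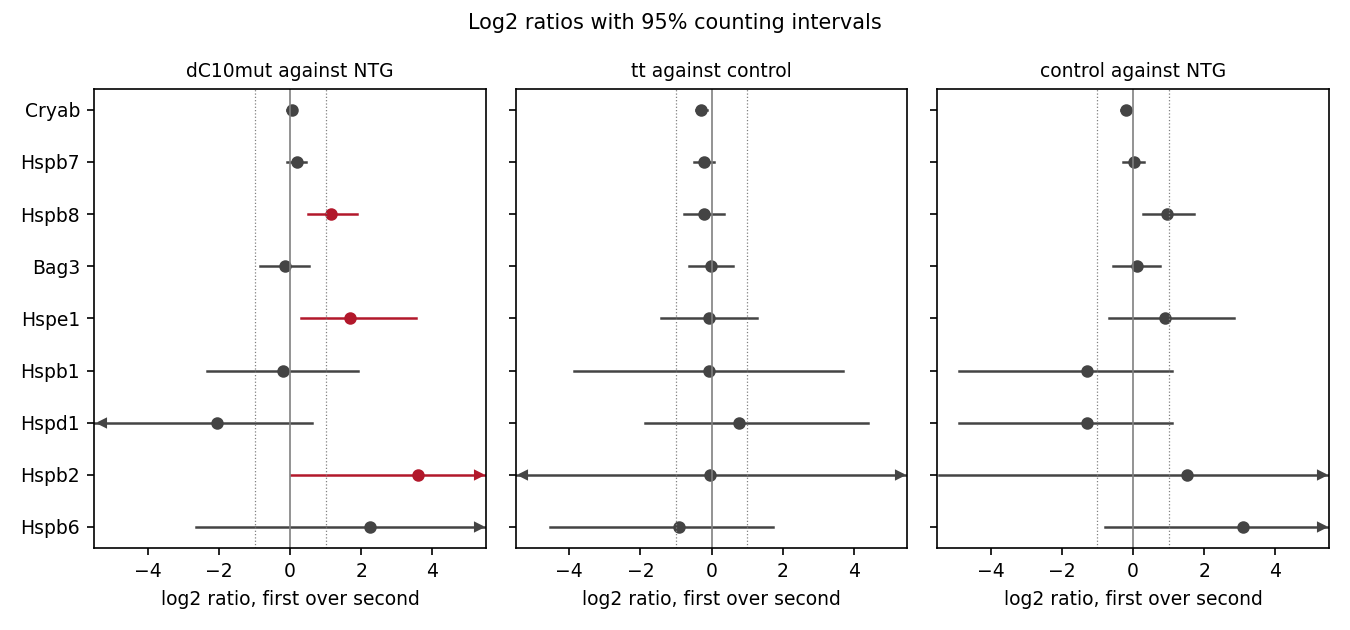
Log2 ratios of scaled counts with 95% counting intervals for the 9 genes with a count, for dC10mut over NTG, tt over control and control over NTG, left to right. Red points passed the 2-fold rule with a prior count, which for Hspb2 holds only with that prior; dotted lines mark 2-fold and arrows mark intervals that run off the axis. Hspb8 stood at 1.15 in dC10mut against NTG, at −0.21 in tt against control and at 0.96 in control against NTG.

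The small heat shock proteins together had 1373 counts in dC10mut and 1084 in NTG, a log2 ratio of 0.12 (0.00 to 0.23). Without the Cryab row, an alternative added with the values in view, the sums were 335 in dC10mut and 223 in NTG, with a log2 ratio of 0.36 (0.11 to 0.61). In the other pair the sums were 998 counts in tt and 1136 in control, with −0.27 (−0.39 to −0.15), and without Cryab 259 in tt and 285 in control, with −0.22 (−0.47 to 0.03). The summed counts therefore lay slightly higher in dC10mut and slightly lower in tt than in the partner library, at 1.08-fold of it in dC10mut and 0.830-fold in tt. For control over NTG, neither labelled as a model, the same sum gave −0.12 (−0.24 to 0.01), about as far from equality as dC10mut over NTG. With library totals the values were 0.21 for dC10mut over NTG and 0.017 for control over NTG. The ratios of the pairs differed by at least 2-fold with an interval that excludes 0 for 1 of the 9 genes, Hspb8, by 1.36 (0.52 to 2.20) on the log2 scale. Over all genes, 2.49% differed in that direction and 3.29% in the other, or 172 and 228 genes, against 210 and 185 with library totals. For Cryab the difference was 0.33 (0.14 to 0.52), for Hspb7 0.39 (0.01 to 0.78) and for Hspe1 1.77 (−0.03 to 3.56). Hspb2 (3.66), Hspb6 (3.15) and Hspd1 (−2.83) also passed the 2-fold size, with intervals that include 0 and at most 6 counts in a library.

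A difference common to both mutants was tested in edgeR (quasi-likelihood, Benjamini-Hochberg) with a block for the pairs, which leaves 1 residual degree of freedom. None of the 9 genes passed: 0 had an adjusted p under 0.05, 0 had an unadjusted p under 0.05, and the lowest adjusted p was 0.997. Hspb8 had a log2 difference of 0.44 (unadjusted p = 0.25) and Hspe1 of 0.78 (unadjusted p = 0.16). Of the 7343 genes tested, 0.15% were called higher and 0.0953% lower, and 327 had an unadjusted p under 0.05. DESeq2 with the same block called 0 genes and gave 42 with an unadjusted p under 0.05, 0 of them among the 9.

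Other measures also differed between the libraries, some in the same order as these results and some not, and their part in them was not tested. The summed level of the macrophage markers (6 of 7 with a count) was 256 CPM in dC10mut, 112 in NTG, 93.4 in tt and 253 in control, so it was higher in dC10mut and in control than in NTG, as Hspb8 was, but not in tt, where Hspb8 was also above NTG. Lyz2 carried most of this, with 28 counts in dC10mut, 6 in NTG, 5 in tt and 28 in control. Without it the sums were 107 CPM in dC10mut, 74.9 in NTG, 67.5 in tt and 98.9 in control. Adgre1, a defining marker of macrophages, had 0 counts in every library. The mural cell markers (4 of 7) summed to 919 CPM in dC10mut, 618 in NTG, 670 in tt and 863 in control, with Pdgfrb, Myh11 and Kcnj8 at 0. Without Rgs5, the most abundant of them, the sums were 278 CPM in dC10mut, 212 in NTG, 223 in tt and 341 in control. The heart muscle markers (8 of 10) summed to 32844 CPM in dC10mut, 26380 in NTG, 23636 in tt and 26003 in control, in the same order within each pair as Cryab. Of the 4 averaging at least 10 counts, 1 was positive in tt against control, Ryr2 at 0.43 (0.11 to 0.75). The endothelial markers (5 of 8, with Pecam1, Tek and Emcn at 0) summed to 1223 CPM in dC10mut, 1391 in NTG, 695 in tt and 1440 in control. Without Fabp4, the most abundant of them, the sums were 240 CPM in dC10mut, 430 in NTG, 166 in tt and 324 in control. The fibroblast markers (7 of 7) summed to 219 CPM in dC10mut, 318 in NTG, 202 in tt and 390 in control. The Xist and Tsix rows had counts in the mutant libraries only, so sex and genotype cannot be told apart. In bulk tissue, fewer cells of a type and less RNA per cell cannot be told apart either.

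The promoters of the genes were examined for the letters of heat shock elements, which the heat shock factors bind in inverted repeats of GAA. RefSeq windows (GRCm38.p6, 250 bases before to 50 after the start) were at hand for 7 of the 10 genes, in 9 windows. The letters searched were GAANNTTC and TTCNNGAA, each its own reverse complement, and they can overlap. At least one of them stood in 6 of the 9 windows, against 15.1% of all 32851 windows in the table. The Hspe1 window and an Hspd1 window overlap and hold the same letters, so the 6 windows are not independent. Among the members, 4 genes share the same 8 letters, GAAGTTTC, which 1.21% of all windows hold on either strand. These 8 letters were picked from the members' own matches, so the share beside them is a description and not a test. They are shown because Hspb8, called higher in dC10mut, holds the same letters as its partner Bag3, which was not. The stretches run 5′ to 3′ along each gene, and the capitals mark GAAGTTTC.
Hspb8: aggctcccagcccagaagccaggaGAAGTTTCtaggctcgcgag
Bag3: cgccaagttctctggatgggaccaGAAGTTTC
Hspb1: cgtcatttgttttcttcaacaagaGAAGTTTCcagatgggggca
Hspb6: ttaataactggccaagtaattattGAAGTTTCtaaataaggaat
The Hspb8 stretch is at chr5:116422843-116422886 on the minus strand and its letters begin 3 bases into the transcript, counting the start as 1. In Bag3 (chr7:128523601-128523632, plus strand) the letters begin at base 43 and close the window. In Hspb1 (chr5:135887778-135887821) and Hspb6 (chr7:30553157-30553200), both on the plus strand, they begin at positions −117 and −120 from the start. Hspb1 also holds GAACCTTC. A match of letters is a description of the sequence and not a bound site.

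Hspe1 and Hspd1 are divergent neighbours, and one of the Hspd1 windows shares 285 bases with the Hspe1 window. The Hspe1 window at chr1:55087898-55088197 (plus strand) is shown because its shared centre holds TTCTAGAA, GAACCTTC and TTCCGGAA one over the other, marked in capitals.
Hspe1: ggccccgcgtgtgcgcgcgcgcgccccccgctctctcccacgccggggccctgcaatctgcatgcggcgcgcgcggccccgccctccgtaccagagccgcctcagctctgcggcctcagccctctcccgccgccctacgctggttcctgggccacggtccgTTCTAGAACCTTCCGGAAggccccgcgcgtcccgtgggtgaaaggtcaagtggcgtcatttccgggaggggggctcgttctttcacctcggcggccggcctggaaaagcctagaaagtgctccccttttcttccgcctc
The same letters therefore stand in the Hspe1 window and in the Hspd1 window that overlaps it. The Hspd1 counts stood in a transcript that was not placed, so which Hspd1 window belongs to it is not known. The counts in dC10mut and NTG were 20 and 5 for Hspe1 and 1 and 5 for Hspd1. The window of Hspb7 and the first windows of Hspb6 and Hspd1 held neither motif, which says only that these letters are not there.

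The wider chaperone network was read from 9 lists of 98 genes, each counted once, of which 69 had a count. In dC10mut against NTG, 1 of the 61 genes with a count in that pair was called higher and 1 lower. The one higher was Vbp1, a prefoldin subunit, with 14 counts in dC10mut and 3 in NTG, and the one lower was Hspa12b, an HSP70 of endothelium, with 12 counts in dC10mut and 26 in NTG. In tt against control, 0 of 67 were called. Among the 37 chaperone genes that averaged at least 10 counts, the median log2 ratio was 0.03 in dC10mut against NTG, with 20 positive, and 0.30 in tt against control, with 26 positive. Over all genes of that abundance the medians were −0.04 and −0.05, and 47.5% and 47% were positive.

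The genes of HSP90 and its partners, which fold kinases and steroid receptors, lay higher in tt than in control for 8 of 9 at that abundance, with a median log2 ratio of 0.53. None of them reached 2-fold. Hsp90ab1, the constitutive HSP90, had 490 counts in tt and 278 in control, with a log2 ratio of 0.73 (0.52 to 0.95), and 430 in dC10mut and 380 in NTG, with −0.05 (−0.25 to 0.16). Fkbp4, an immunophilin that binds HSP90, had 49 counts in tt and 32 in control, and 67 in dC10mut and 49 in NTG. The control library was low for this list in general, since 2 of the 9 genes were positive in control against NTG, with a median of −0.53, and that comparison shares the control library. The J-domain proteins, which deliver clients to HSP70, were positive in 5 of 5 in tt against control (median 0.53) and in 4 of 5 in dC10mut against NTG (median 0.58). Dnaja2 had 70 counts in tt and 34 in control, with a log2 ratio of 0.95 (0.35 to 1.60). Dnajc19, a part of the mitochondrial import motor, had 370 counts in tt and 231 in control, but lies opposite Fxr1.

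The remaining folding machines showed no common direction. In the cytosolic chaperonin TRiC and prefoldin, 4 of 8 were positive in each pair, and Cct8, which lies opposite Usp16, had 75 counts in dC10mut and 88 in NTG, and 86 in tt and 132 in control. Of the mitochondrial chaperones and proteases, 3 of 6 were positive in dC10mut against NTG and 4 of 6 in tt against control. Grpel1, the nucleotide exchange factor of Hspa9, had 71 counts in dC10mut and 94 in NTG, and 86 in tt and 122 in control, opposite Tada2b. Of the chaperones of the endoplasmic reticulum, 3 of 4 were positive in both pairs, and Calr (calreticulin) had 120 counts in dC10mut and 78 in NTG, and 83 in tt and 58 in control. Hsbp1, which binds heat shock factor 1, had 13 counts in dC10mut, 14 in NTG, 20 in tt and 19 in control, and Hsf1 had 0 throughout. In the BAG family, Bag4, which inhibits death receptor signalling and lies opposite Gm17484, had 9 counts in dC10mut, 4 in NTG, 9 in tt and 6 in control. Bag2, which lies opposite Gm37905, had 2 counts in dC10mut, 4 in NTG, 6 in tt and 8 in control. Of the other small heat shock proteins, Hspb3, the partner of Hspb2 in muscle, had 9 counts in dC10mut, 5 in NTG, 4 in tt and 2 in control.

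**Figure D4:**
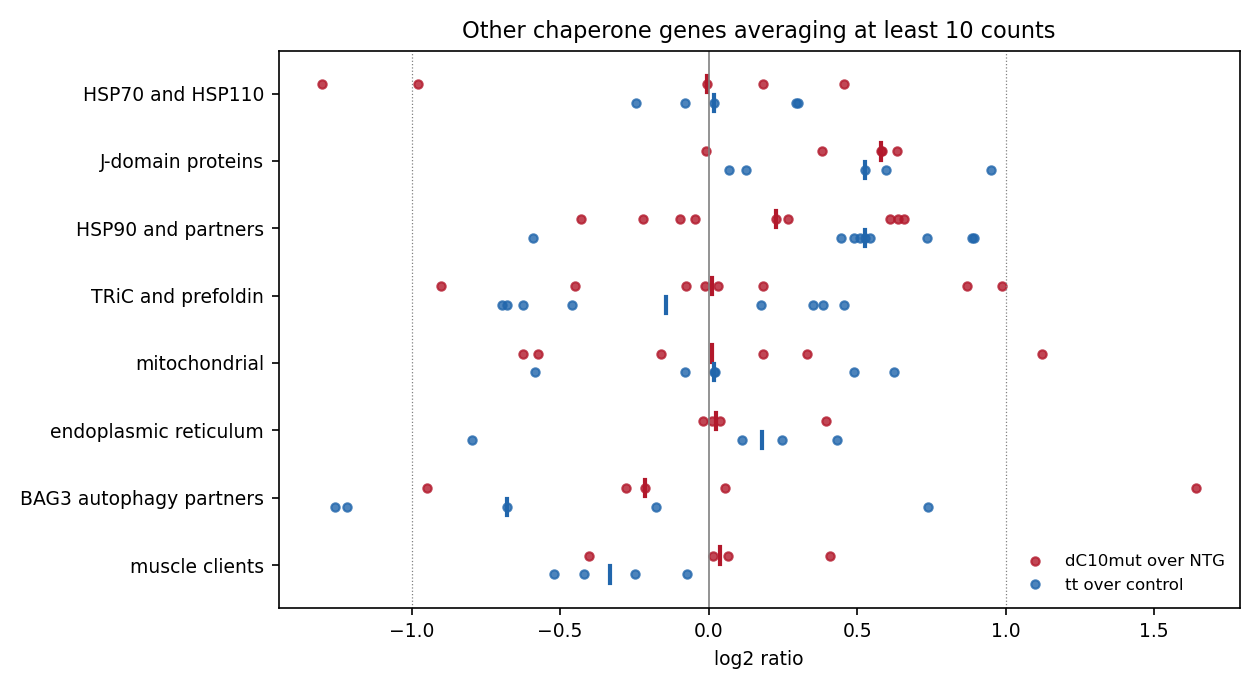
Log2 ratios of the chaperone, autophagy and client genes that averaged at least 10 counts over the 4 libraries, by list, for dC10mut over NTG (red, upper) and tt over control (blue, lower); bars are medians and dotted lines mark 2-fold. HSP90 and its partners have a median of 0.53 in tt over control, and the muscle clients lie below 0 there.

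The autophagy genes that act with Bag3 and the muscle clients of the small heat shock proteins were read from 2 further lists. Gabarap, which joins cargo to the autophagosome, had 23 counts in dC10mut and 6 in NTG, and 9 in tt and 21 in control, and was called higher in dC10mut and lower in tt. It was also called higher in control than in NTG, with 21 counts in control and 6 in NTG. Wipi1, an early autophagy protein, had 17 counts in dC10mut, 14 in NTG, 15 in tt and 23 in control. Among the clients, Actc1 (cardiac actin) had 1403 counts in dC10mut and 906 in NTG, with a log2 ratio of 0.41 (0.29 to 0.53), and 1091 in tt and 1083 in control, with −0.07 (−0.19 to 0.05). Actn2 (α-actinin of the Z-disc) had 264 counts in dC10mut and 299 in NTG, with −0.40 (−0.65 to −0.16), and 263 in tt and 295 in control, with −0.25 (−0.49 to −0.003). None of the 4 clients at this abundance was called in either pair.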

How the data were processed

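Poly(A) RNA from mouse hearts was sequenced with a stranded kit, per the labels' protocols. STAR, HTSeq and build mm10 are named in the submitters' processing notes; their versions, the counting mode and the use of strand are not given in the sources used here. Whole-number read counts were deposited for 41449 RefSeq transcripts, with no normalization. Symbols came from RefSeq (41252 matched) and counts were summed per symbol. Positions came from GENCODE M21 (GRCm38), which placed 35347 transcripts.

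With 1 library per group there was no test within pairs. Counts were scaled with TMM factors of 0.999 (dC10mut), 0.940 (NTG), 1.03 (tt) and 1.03 (control) from edgeR 4.0.16 in R 4.3.3. Log2 ratios used a prior count of 0.5 and exact Clopper-Pearson conditional binomial intervals (95%, scipy 1.17.1), which cover counting error only, since PCR copies are not independent molecules. A gene was called at an absolute log2 ratio of at least 1, an interval that excludes equality and 1 CPM in a library of the pair. A fold against 0 counts was taken against 3 counts in that library. Differences between pairs used a normal approximation of the counting interval. The common difference came from the quasi-likelihood test of edgeR with Benjamini-Hochberg adjustment, over genes reaching 1 CPM in 2 or more libraries; DESeq2 1.42.0 was the alternative. The scripts were tested on simulated data. The genes and lists were chosen with earlier results of these data known. From other lists, each gene called in a pair was named, with up to 2 more of highest mean count; not all are printed, and 1 that meets the rule is not reported here.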

Additional observations from a re-analysis of the deposited data

Results flagged for a closer look

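The log2 ratio of Hspb8 for dC10mut over NTG (1.15) and for tt over control (−0.21) differed by 1.36 (0.52 to 2.20), past the 2-fold size and the counting interval. There is 1 library per group, so the difference between the pairs was not tested against the spread between hearts. The counts behind it were 68 in dC10mut and 26 in NTG, and 53 in tt and 58 in control, and the NTG library alone stood low.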

How the results depend on the processing

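Of 264 recomputed values, 246 stayed within the counting interval of the value reported, within 1.5 times of it for a count, or on the same side of the threshold for a test. Some of these values could not move. A 1.5-fold threshold, a minimum of 10 counts and the choice of transcript left the log2 ratios of the members unchanged by construction. Among the ratios within their interval, 5 still crossed the 2-fold size and 2 uncalled ones changed sign, Bag3 (0.0014) and Hspe1 summed with Hspd1 (0.12), both in tt against control. The crossings of size were Hspb6 in dC10mut against NTG with a prior count of 2 (0.95), Hspb8 (1.09) and Hspe1 (1.02) in control against NTG with library totals, and the 2 sums that follow. Summing Hspe1 with Hspd1 gave 0.82 in dC10mut against NTG, which ended the call of Hspe1, and summing Hspb2 with Cryab (0.05) ended that of Hspb2. Without the Cryab row the small heat shock protein sum moved to 0.36 in dC10mut against NTG and to 0.17 in control against NTG. Library totals in place of TMM moved the sum in control against NTG to 0.017, called 84 genes lower in control against NTG and made Hspb8 the 1 member called higher there; 2 members, Hspb8 and Hspe1, then differed between the pairs. With 0 counts taken at 3 counts, added after the values were seen, Hspb2 lost its call and 2 members were higher in dC10mut. A 1.5-fold threshold called 242 genes lower in tt against control. In genes with no opposite-strand exon, an alternative added after the data were seen, 92 genes were lower in dC10mut, and 120 were higher and 74 lower in tt. That set holds fewer genes, and without a share these counts cannot be compared with those over all genes. For the common difference, 18 genes passed in the fit reported, 11 with no filter, 0 with at least 10 counts, 0 with DESeq2 and 0 with no replicate block; the cause of these changes was not tested. The common difference of Hspb7 turned to 0.0060 with DESeq2's size factors in edgeR and in DESeq2, and that of Hspb6 to −0.13 without the block; neither passed a test in any fit. No replicate could be left out, with 1 library per group. The labels give no replicate numbers, so libraries could be paired only by strain label, as in the block of the common test. Depth limits Hspb1, Hspb2, Hspb6 and Hspd1, which had at most 6 counts in a library.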
